A study of Ovis aries with 26 samples.

Results

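The comparison described here set the pancreas of naturally bred sheep fetuses that lacked CFTR (CFTR-/-) against wild type (WT) pancreas, both at 120 days of gestation, by droplet single-cell RNA sequencing. The members are the 2 libraries of naturally bred CFTR-/- fetuses and the 3 libraries of WT fetuses of that age, chosen by their labels and by how the study says each animal was bred. They are 5 of the 26 libraries and 5 of the 23 animals of the series, and they hold 16332 of its 79510 kept cells. The CFTR-/- fetuses were a pair of female twins from heterozygous parents that carried an allele disrupted by gene editing, and each was one animal and one library. The WT fetuses carried no edit, WT 1 and WT 3 were labelled male and WT 2 female, and the labels name no treatment. The study collected its animals over several breeding seasons, and family, most of the sex difference and any difference of season cannot be told apart from genotype. The other CFTR-/- animals of this age were 4 male fetuses cloned from a single edited fibroblast line, and they enter below only for contrast.

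CFTR encodes an anion channel of the apical membrane of duct cells, through which chloride leaves and bicarbonate secretion is driven. In the pancreas this secretion carries the enzymes that acinar cells release as precursors, and without it the ducts plug and the exocrine tissue is lost. Islet cells make hormones, stellate cells and fibroblasts lay down matrix, and both lie among the lobules that are damaged in cystic fibrosis.

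Barcodes stayed in where between 200 and 6000 genes were detected and mitochondrial UMIs stood below 25% (unique molecular identifiers, each standing for one captured RNA molecule). This left 3903 and 3590 cells of the CFTR-/- fetuses 5 and 6, and 2619, 1946 and 4274 cells of WT 1, 2 and 3. The kept cells held between 48083229 and 81413732 UMIs per animal, and any pair of libraries shared between 1 and 5 barcodes, at most 0.206% of the smaller library. Each cell was put in a class by its marker genes, and the classes carry names such as "acinar-like" because they were rebuilt here from markers. Of the kept cells 8564 were acinar-like, 2398 duct-like, 2050 endocrine-like, 718 stromal-like, 581 endothelial-like and 401 mural (stellate)-like, while 1051 fell in no class. Expression is given as counts per 1000000 UMIs of the class after TMM scaling (CPM). Log2 fold changes are CFTR-/- minus WT ± standard error, and a gene was called when its adjusted p from edgeR's quasi-likelihood test with Benjamini-Hochberg adjustment over all genes of the class was at most 0.05. P-values measure the spread between these animals, and siblings may vary less than unrelated fetuses. The study's animal numbers share a stem in WT 1 and WT 2, which may be littermates, and WT 3 has another stem. Some fits below added labelled sex as a term. WT 2 is the only female WT animal, so there the WT level rested on WT 2 alone. Those fits cannot separate sex from that animal.

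One library stood apart from the rest. In an unsupervised clustering, 726 of the 734 cells of a duct cluster led by TNFRSF12A, CLDN4 and HSPB1 came from WT 3, and so did 889 of the 1006 cells of an acinar cluster led by HSPH1, HSPA6 and HSP90AA1. The duct cluster held 85.3% of the duct-like cells of WT 3, and the acinar cluster held 58.9% of its acinar-like cells. Values without WT 3 are given beside several of the results that moved with it.

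CFTR itself was read mainly in duct-like cells, where it was at 189 and 258 CPM in the CFTR-/- fetuses and 209, 276 and 191 CPM in WT. The groups overlapped, and the log2 fold change was -0.01 ± 0.23 (edgeR adjusted p = 0.989). Reads were taken from the 3′ end of the transcript, away from the edited exon, so the level of CFTR RNA does not check the labels. Acinar-like cells held 3.34 and 4.55 CPM in the CFTR-/- fetuses and 2.54, 4.71 and 4.46 CPM in WT, and endocrine-like cells held 2.25 and 1.47 CPM in the CFTR-/- fetuses and 2.55, 0.819 and 2.13 CPM in WT. Both levels overlapped between the groups and stood far below that of duct-like cells in every animal.

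Stromal, mural, endothelial and erythroid cells took a smaller share of the captured cells in both CFTR-/- fetuses than in any WT fetus, without passing a test, and the shares of acinar, duct and endocrine cells overlapped. Stromal-like cells made up 2.56% and 2.84% in the CFTR-/- fetuses and 4.96%, 3.85% and 7.28% in WT, or 2.702% ± 0.197 (SD, n = 2) against 5.37% ± 1.75 (SD, n = 3). Both CFTR-/- values lay below all WT values, and the ratio of the means was 0.504. Mural (stellate)-like cells made up 1.72% and 1.59% in the CFTR-/- fetuses and 2.405%, 1.95% and 4.12% in WT. Endothelial-like cells made up 2.18% and 3.06% in the CFTR-/- fetuses and 4.58%, 3.7% and 4.54% in WT. Erythroid-like cells made up 0.154% and 0.084% in the CFTR-/- fetuses and 0.191%, 0.874% and 1.1% in WT. These erythroid shares rested on 6 and 3 cells in the CFTR-/- fetuses and 5, 17 and 47 in WT. In these 4 classes the observed shares of the groups did not overlap. The intervals of the closest animals (95% Wilson interval, counting error only) overlapped in each of them. For erythroid-like cells they ran from 0.07% to 0.335% in fetus 5 and 0.082% to 0.446% in WT 1. For mural (stellate)-like cells they ran from 1.354% to 2.174% in fetus 5 and 1.426% to 2.669% in WT 2. Mesothelial-like cells numbered 1 and 7 in the CFTR-/- fetuses, or 0.026% and 0.195% of cells. None was found among the WT cells, which allows a share of up to 0.115%, 0.154% and 0.0702% in WT 1, 2 and 3. These 5 classes had a two-sided exact permutation p = 0.2, the smallest that 10 arrangements of 2 and 3 animals can give, and 0.48 after Benjamini-Hochberg adjustment over the classes. A fit of edgeR's quasi-likelihood test to the cell numbers gave a log2 fold change of -0.99 for stromal-like cells (adjusted p = 0.373) and -2.57 for erythroid-like cells (adjusted p = 0.197), and no class passed (2 at an unadjusted p under 0.05). Without WT 3 the differences of the means were -1.71 percentage points instead of -2.66 for stromal-like cells and -0.53 instead of -1.17 for mural (stellate)-like cells. The protocol held a step of red blood cell removal, and its part in the erythroid share was not tested.

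Shares of the epithelial classes overlapped between the groups. Acinar-like cells made up 63.8% and 51.6% in the CFTR-/- fetuses and 56.97%, 63.7% and 34.8% in WT. WT 3 was lowest, and its interval (95% Wilson interval, counting error only) ran from 33.4% to 36.3%. Duct-like cells made up 11.5% and 13.96% in the CFTR-/- fetuses and 15.9%, 10.7% and 19.3% in WT. Endocrine-like cells made up 5.48% and 19.6% in the CFTR-/- fetuses and 10.2%, 5.396% and 17.8% in WT. The endocrine share differed more within each group than between the group means, from 5.48% to 19.6% between the twins. Macrophage-like cells made up 2.08% and 0.891% in the CFTR-/- fetuses and 0.344%, 0.36% and 0.912% in WT, with WT 3 above the lower twin. Lymphoid-like cells made up 2.43% and 0.111% in the CFTR-/- fetuses and 0.267%, 3.96% and 1.31% in WT, with the highest and the lowest value in different groups. Schwann-like cells made up 0.333% and 0.362% in the CFTR-/- fetuses and 0.764%, 0.103% and 0.655% in WT, so the WT range held both twins. Shares depend on how the tissue was digested, which could be by either of 2 enzyme preparations, and which one was used for which animal was not given.

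**Figure D1:**
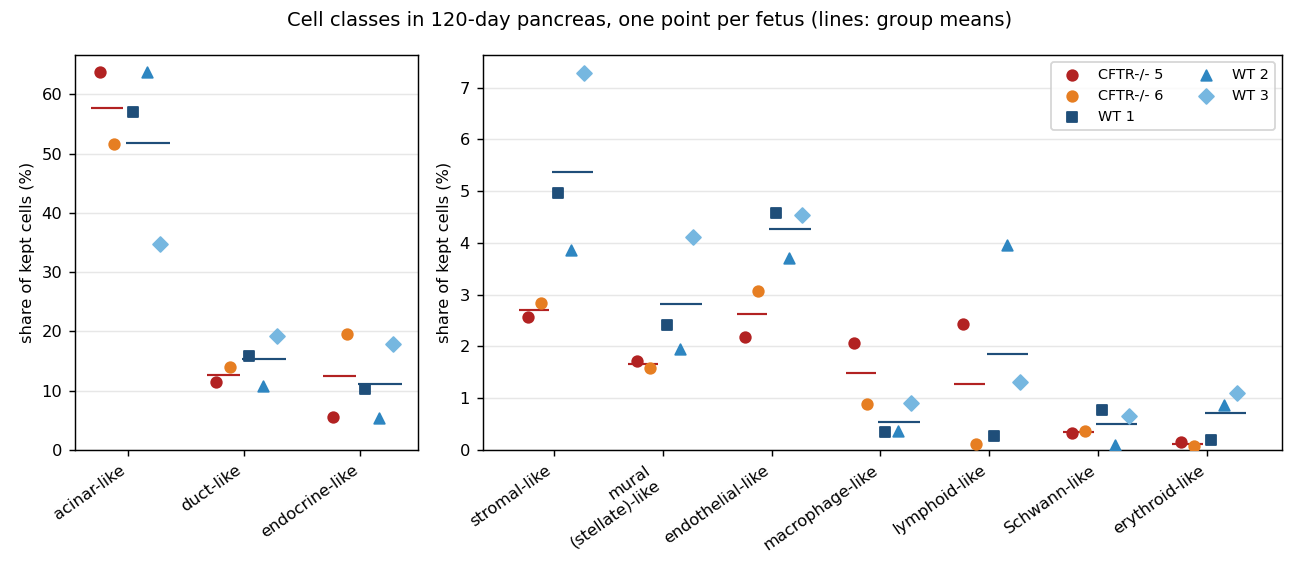
Share of kept cells (%) in 10 marker-defined classes, one point per fetus, with group means as lines; the left panel holds the 3 epithelial classes and the right panel the others on a smaller scale. The stromal-like, mural (stellate)-like, endothelial-like and erythroid-like points of both CFTR-/- fetuses lie below all 3 WT points, while the epithelial classes overlap. In each of these non-epithelial classes the counting-error intervals of the closest animals overlap.

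Acinar-like cells, the class with the most UMIs, had the most genes called. Heat shock and immediate-early genes were lower in both CFTR-/- fetuses, and IFI30, SDF2L1, HPGD, CNPY3 and RNASE4 had the largest rises among genes of at least 10 CPM that passed the other criteria for naming. Of 13793 genes tested, 392 were called (2.84%), 79 higher (0.573%) and 313 lower (2.27%). The immediate-early and heat shock list, which tissue digestion is known to switch on in dissociated cells, had 15 of its 26 tested members lower and none higher, with a median log2 fold change of -2.44 against -0.01 over all genes. Leaving out an animal kept the median between -2.76 (without fetus 5) and -2.14 (without fetus 6). By edgeR 24 members were lower without WT 3, beside 1255 of 13422 genes. Without WT 1 and without WT 2 there were 3 each, beside 19 of 13257 and 71 of 13618 genes. With labelled sex as a term 1 member was lower, beside 13 of 13793 genes, with a median of -2.57. On CPM, 24 of the 26 members lay lower without overlap, against 22.8% of all genes.

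HSP90AA1, a chaperone of the heat shock response, was at 539.6 and 485 CPM in the CFTR-/- fetuses and 2738, 2990.2 and 7395 CPM in WT. Its WT level was 8.54 times that of the CFTR-/- fetuses, the groups did not overlap, and WT 3 was highest. The log2 fold change was -3.09 ± 0.50 (edgeR adjusted p = 0.037), and -2.48 without WT 3. HSPA8, the constitutive heat shock cognate chaperone, was at 379.6 and 297 CPM in the CFTR-/- fetuses and 1766, 2175 and 3355 CPM in WT. The same order held as for HSP90AA1 (log2 fold change -2.85 ± 0.32, edgeR adjusted p = 0.0241). HSPA6, a strictly inducible chaperone, was at 117 and 122 CPM in the CFTR-/- fetuses and 658, 949 and 1397 CPM in WT. It fell by 3.07 on the log2 scale (edgeR adjusted p = 0.0241), but reads of HSPA6, HSPA1A and HSPA1B may be split among near-identical copies. ATF3, a stress-induced transcription factor, was at 96.7 and 62.6 CPM in the CFTR-/- fetuses and 619, 877 and 359 CPM in WT. Here WT 3 was the lowest WT animal and still above both CFTR-/- fetuses (log2 fold change -2.96 ± 0.44, edgeR adjusted p = 0.0311). The list included JUN, EGR1, NR4A1, BTG2, ZFP36, DUSP1 and JUND among its other called members, all lower.

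The unfolded protein response, by which secretory cells adjust to load in the endoplasmic reticulum, was split. Of 20 tested members 7 were lower (HERPUD1, CHAC1, PPP1R15A, ATF4, ATF3, DDIT3 and HSPA5) and 1, SDF2L1, was higher, beside 2.27% and 0.573% of all genes, and the list's median was -0.27. By edgeR 2 members were lower without WT 1 and 2 without WT 2, beside 19 of 13257 and 71 of 13618 genes. The median was -0.31 without fetus 5 and -0.17 without fetus 6. HERPUD1, which helps clear misfolded proteins from the endoplasmic reticulum, was at 163 and 179 CPM in the CFTR-/- fetuses and 836, 1110.2 and 891 CPM in WT. The WT animals lay close together and well above both CFTR-/- fetuses (log2 fold change -2.47 ± 0.19, edgeR adjusted p = 0.0158). HERPUD1 was the 1 named gene, of 81 called, that was called under every other setting of the fit that used all animals. CHAC1, a glutathione-degrading enzyme induced by ATF4, was at 0.568 and 0.517 CPM in the CFTR-/- fetuses and 9.72, 12.2 and 24.8 CPM in WT. Both CFTR-/- values were below 1 CPM (log2 fold change -4.84 ± 0.51, edgeR adjusted p = 0.0208). PPP1R15A, which restores translation after stress by helping dephosphorylate eIF2alpha, was at 26.9 and 15.9 CPM in the CFTR-/- fetuses and 81.6, 126 and 115 CPM in WT. It was lower without overlap as well (log2 fold change -2.33 ± 0.31, edgeR adjusted p = 0.0287). SDF2L1, a partner of the chaperone HSPA5 in the endoplasmic reticulum, moved the other way, at 419 and 287 CPM in the CFTR-/- fetuses and 121, 129.6 and 156 CPM in WT. Both CFTR-/- fetuses were above all WT animals (log2 fold change 1.38 ± 0.21, edgeR adjusted p = 0.0321).

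CDKN1A, TNFRSF12A, DNAJA4 and THBS1 were among the largest falls that met the criteria for naming. CDKN1A, the p21 cell cycle inhibitor, was at 0.846 and 0.856 CPM in the CFTR-/- fetuses and 33.2, 11.95 and 58.99 CPM in WT. TNFRSF12A, the receptor of TWEAK, was at 2.87 and 4.62 CPM in the CFTR-/- fetuses and 88.99, 52.8 and 225 CPM in WT. THBS1, thrombospondin 1, was at 6.72 and 5.45 CPM in the CFTR-/- fetuses and 66.6, 113 and 279 CPM in WT. In all 3 the CFTR-/- fetuses were lowest and WT 3 was highest. Their log2 fold changes were -5.35 ± 0.76 (edgeR adjusted p = 0.0299), -5.03 ± 0.75 (adjusted p = 0.0314) and -4.65 ± 0.70 (adjusted p = 0.0314), and without WT 3 they were -4.74, -4.25 and -3.88. DNAJA4, a co-chaperone, fell too (log2 fold change -4.69 ± 0.70, edgeR adjusted p = 0.0314). REL, a subunit of NF-kB, was at 2.48 and 2.72 CPM in the CFTR-/- fetuses and 7.704, 9.14 and 10.4 CPM in WT. Its levels were low but did not overlap (log2 fold change -1.80 ± 0.18, edgeR adjusted p = 0.0208).

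Rises in acinar-like cells were smaller. IFI30, a lysosomal thiol reductase, was at 45.6 and 35.2 CPM in the CFTR-/- fetuses and 6.53, 6.96 and 8.98 CPM in WT. It was 5.399 times as high in the CFTR-/- fetuses (log2 fold change 2.43 ± 0.19, edgeR adjusted p = 0.0158). HPGD, which inactivates prostaglandins, was at 113 and 179 CPM in the CFTR-/- fetuses and 52.8, 48.8 and 66.97 CPM in WT. RNASE4, a secreted ribonuclease, was at 69.4 and 57.1 CPM in the CFTR-/- fetuses and 25.96, 34.9 and 24.3 CPM in WT. CNPY3, a chaperone of Toll-like receptors, was at 13.2 and 10.4 CPM in the CFTR-/- fetuses and 5.72, 4.81 and 3.69 CPM in WT. These 3 rose without overlap by 1.38 ± 0.24, 1.16 ± 0.19 and 1.32 ± 0.21 on the log2 scale (edgeR adjusted p = 0.0428, 0.04 and 0.037). Markers of some other classes also lay apart within acinar-like cells. Macrophage markers summed to 1.8 and 0.6 per 1000000 UMIs in the twins and 0.2, 0.2 and 0.3 in WT, with 5 to 7 of 8 found in each animal. Endothelial markers were at 13.2 and 18.3 against 20.5, 18.6 and 23.6, with 6 of 6 found. Lymphoid markers were at 3.0 and 3.3 against 4.9, 3.4 and 4.1 (3 to 6 of 7 found), mesothelial at 1.3 and 1.5 against 1.2, 0.9 and 0.4 (2 or 3 of 6) and intestinal at 18.8 and 19.1 against 24.8, 24.8 and 29.4 (1 to 3 of 7). The part of RNA from these cells in the acinar values was not tested.

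Among genes of hypoxia and glycolysis, VEGFA and SLC2A1 were the 2 of 22 tested members that were called, both lower, against 2.27% of all genes. VEGFA, the endothelial growth factor, was at 3.94 and 3.53 CPM in the CFTR-/- fetuses and 7.797, 9.801 and 11.6 CPM in WT (log2 fold change -1.38 ± 0.20, edgeR adjusted p = 0.0311). SLC2A1, a glucose transporter, was at 3.22 and 2.98 CPM in the CFTR-/- fetuses and 8.42, 5.71 and 9.48 CPM in WT (log2 fold change -1.34 ± 0.24, edgeR adjusted p = 0.046). HMGB2, a chromatin protein of dividing cells, was lower as 1 of 28 cell division genes, a share near that of all genes, at 12.4 and 11.4 CPM in the CFTR-/- fetuses and 25.1, 23.5 and 23.8 CPM in WT (log2 fold change -1.02 ± 0.12, edgeR adjusted p = 0.025).

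The digestive enzymes, the main product of these cells, were not called by edgeR in any of 17 tested members. At an unadjusted p under 0.05 there were 3, and DESeq2 called 1. Their median log2 fold change was 0.64. It was 0.34 without WT 1, 0.98 without WT 2, 0.37 without fetus 5 and 0.12 with labelled sex as a term. CLPS, the cofactor of pancreatic lipase, was at 39932 and 28635 CPM in the CFTR-/- fetuses and 16017, 28297 and 1789 CPM in WT. WT 3 held far less than the other 4 animals, and WT 2 lay close to the lower twin. CELA3B, an elastase, was at 11445 and 13584 CPM in the CFTR-/- fetuses and 10420.0, 10129 and 12299 CPM in WT, and these values overlapped. Of 5 acinar transcription factors none was called by edgeR (1 at an unadjusted p under 0.05, none by DESeq2). XBP1, which expands the secretory endoplasmic reticulum, was at 424 and 373 CPM in the CFTR-/- fetuses and 453, 431 and 377 CPM in WT. NR5A2, a regulator of acinar identity, was at 20.4 and 24.5 CPM in the CFTR-/- fetuses and 22.2, 20.5 and 18.4 CPM in WT. Both overlapped between the groups.

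The acinar-like cells of the groups were spread differently over the clusters. One cluster held 73.8%, 59.9% and 13.5% of those of WT 1, 2 and 3, and 11.7% and 5.56% of those of the CFTR-/- fetuses. Another, among several led by CLPS, held 32.9% and 44.0% in the CFTR-/- fetuses and 0.94%, 0.32% and 0.54% in WT. Most of those of WT 3 (58.9%) lay in the cluster led by HSPH1. The number of genes called was 1 and 0 without CFTR-/- fetus 5 and 6 in turn (0 called beside 1558 at an unadjusted p under 0.05), 13 with labelled sex as a term, and 1916 without WT 3.

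**Figure D2:**
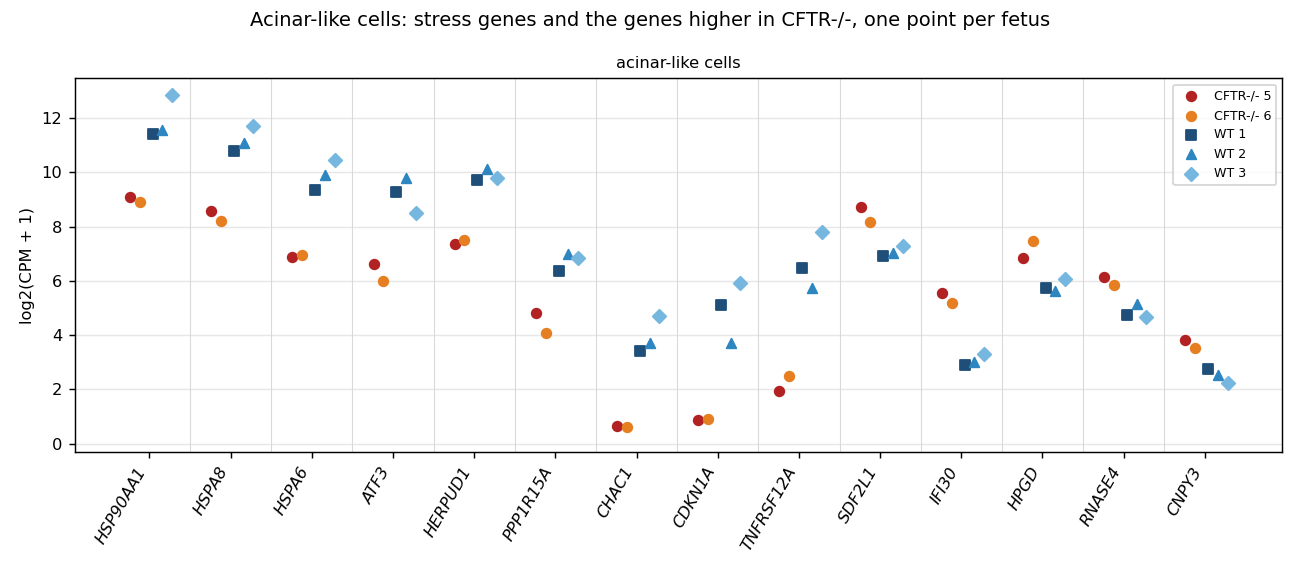
Expression of 14 genes in acinar-like cells as log2(CPM + 1), one point per fetus. For the stress genes from HSP90AA1 to TNFRSF12A both CFTR-/- points lie below all 3 WT points, and for SDF2L1, IFI30, HPGD, RNASE4 and CNPY3 both lie above them.

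The immediate-early and heat shock list was followed through the other classes. In stromal-like cells 6 of 25 tested members were called, all lower, beside 0.358% of all genes, and the median log2 fold change was -1.79. It was -1.16 without WT 3, -1.54 without fetus 5, -2.28 without fetus 6 and -1.10 with labelled sex as a term. In mural (stellate)-like cells 3 of 24 were lower, beside 0.541% of all genes, with a median of -1.37. There the median was -1.58 without fetus 5, -1.78 without fetus 6 and -0.935 with labelled sex as a term. Without WT 1 none of 22 was called in mural (stellate)-like cells by edgeR, beside 24 of 4301 genes. The called members are JUNB, FOSB, KLF2, BTG2, IER3 and KLF4 in stromal-like cells and IER2, JUNB and ATF3 in mural (stellate)-like cells. In duct-like cells 2 of 26 were lower (IER3 and MYC) and 1 was higher (JUNB), beside 0.505% and 0.227% of all genes, with a median of -0.53. Without WT 3 the duct counts became 9 lower and 11 higher, beside 8.97% and 6.4% of all genes, and the median turned to 0.24. The endocrine-like and endothelial-like cells had no member called by edgeR. At an unadjusted p under 0.05 there were 9 and 8 members, DESeq2 called 1 and 3, and the medians were -0.50 and -0.85. The endocrine median was -0.10 without fetus 5 and -1.39 without fetus 6, and the endothelial median was -0.03 without WT 3 and 0.17 with sex as a term. The summed CPM of the list was 3068 and 2371 in acinar-like cells of the CFTR-/- fetuses against 12268, 15279 and 22751 in WT. In duct-like cells the same sum was 23738 and 23285 against 17076, 20706 and 39212, so the CFTR-/- fetuses lay between WT 2 and WT 3. The list thus separated the groups in acinar-like cells and not in duct-like cells of the same animals. That difference between classes was not tested, and neither was the part that digestion had in these genes.

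**Figure D3:**
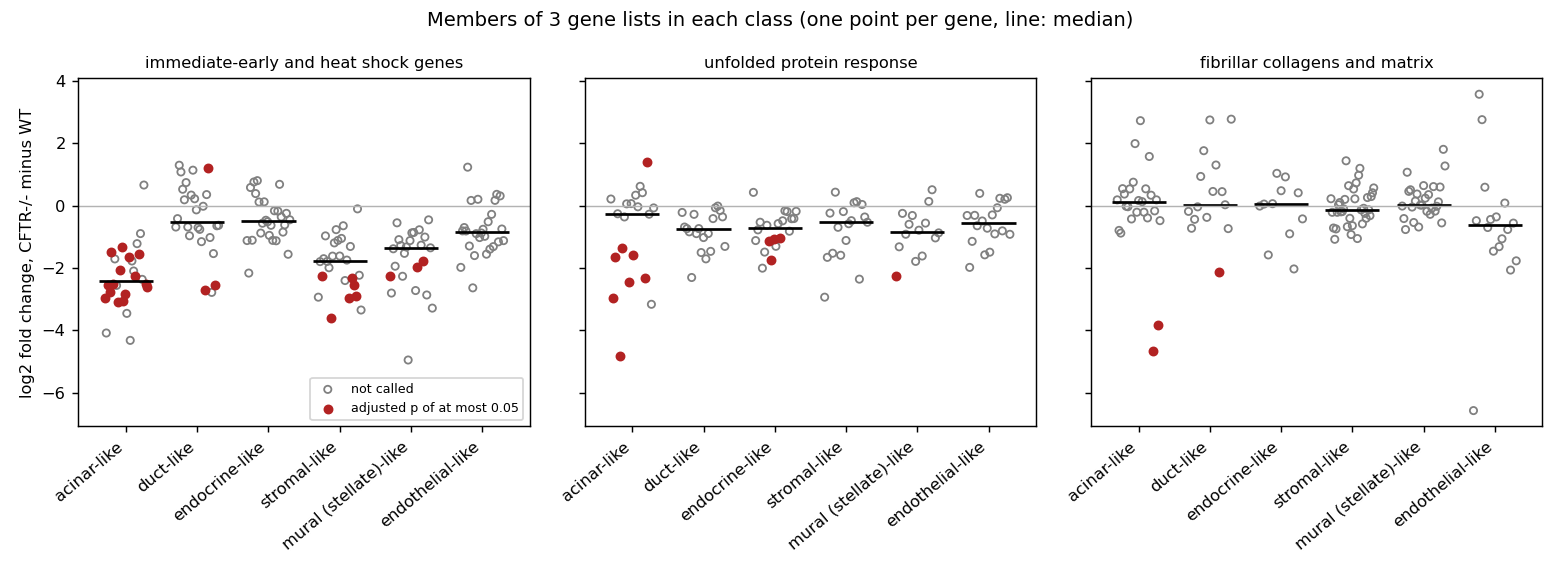
Log2 fold change (CFTR-/- minus WT) of each member of 3 gene lists in 6 classes, one point per gene, filled where the adjusted p was at most 0.05, with the median as a line. Immediate-early and heat shock genes have medians of -2.44 in acinar-like and -1.79 in stromal-like cells, while fibrillar collagens and matrix genes lie around 0 in stromal-like cells, with a median of -0.14.

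In duct-like cells, the cells that carry CFTR, the YAP targets ANKRD1, CTGF and F3 and the induced genes FOSL1 and IER3 were lower, and GNG11, KCNK12, CLDN8 and C25H10orf10 were higher. Of 11878 genes tested 87 were called (0.732%), 27 higher (0.227%) and 60 lower (0.505%). Of these 87 genes 35 (40.2%) were also called in acinar-like cells, among them FOSL1, YOD1, KCNK12, CLDN8 and THRSP. YAP is a transcriptional coactivator that responds to stretch and stiffness. Of 12 tested YAP targets 3 were lower and none higher, and the list's median was -0.63. The medians lay between -0.67 and -0.87 without fetus 5, fetus 6, WT 1 or WT 2. By edgeR no target was called without WT 1 or WT 2, where 0 and 3 genes of the class were called. Without WT 3, 6 of 11 were lower, beside 8.97% of all genes. In acinar-like cells the same list had a median of -1.38 over 10 tested members, with none called by edgeR. DESeq2 called 5 of them lower there, beside 1021 of 13793 genes. ANKRD1, a nuclear ankyrin repeat protein, was at 64.03 and 66.96 CPM in the CFTR-/- fetuses and 259.9, 462 and 709 CPM in WT. CTGF, connective tissue growth factor, was at 124 and 76.6 CPM in the CFTR-/- fetuses and 535, 655 and 435 CPM in WT. F3, tissue factor, was at 10.9 and 11.3 CPM in the CFTR-/- fetuses and 129, 123 and 296 CPM in WT. For each of them the lowest WT animal was at least 3 times as high as the mean of the CFTR-/- fetuses. The log2 fold changes were -2.87 ± 0.43, -2.43 ± 0.30 and -4.04 ± 0.48 (edgeR adjusted p = 0.0468, 0.0297 and 0.0297), and -2.45, -2.57 and -3.50 without WT 3.

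FOSL1, a subunit of the AP-1 transcription factor, was at 2.34 and 2.77 CPM in the CFTR-/- fetuses and 27.4, 29.4 and 80.5 CPM in WT. IER3, an immediate-early gene of cell survival, was at 154 and 231 CPM in the CFTR-/- fetuses and 1118, 1055 and 1594 CPM in WT. Both were lower without overlap and highest in WT 3, with log2 fold changes of -4.17 ± 0.64 and -2.70 ± 0.29 (edgeR adjusted p = 0.0468 and 0.027). MYC, a transcription factor of growth, was at 9.37 and 16.6 CPM in the CFTR-/- fetuses and 103, 78.9 and 51.3 CPM in WT. It was lowest in WT 3 among the WT animals and lower still in both CFTR-/- fetuses (log2 fold change -2.56 ± 0.38, edgeR adjusted p = 0.0468). NTRK2, a receptor of BDNF, was at 3.12 and 1.28 CPM in the CFTR-/- fetuses and 23.6, 12.6 and 19.4 CPM in WT (log2 fold change -3.12 ± 0.46, edgeR adjusted p = 0.0468). YOD1, a deubiquitinase, was at 23.7 and 30.7 CPM in the CFTR-/- fetuses and 165, 126 and 325 CPM in WT (log2 fold change -2.92 ± 0.45, edgeR adjusted p = 0.0468).

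Higher in the duct-like cells of both twins was GNG11, a G protein gamma subunit, at 92.1 and 50.8 CPM in the CFTR-/- fetuses and 0.415, 0.934 and 2.92 CPM in WT. It was below 3 CPM in every WT animal and rose by 5.37 ± 0.55 on the log2 scale (edgeR adjusted p = 0.027). KCNK12, of the family of background potassium channels, was at 34.6 and 97.2 CPM in the CFTR-/- fetuses and 5.18, 6.54 and 1.39 CPM in WT. CLDN8, a claudin of tight junctions, was at 86.9 and 81.03 CPM in the CFTR-/- fetuses and 16.6, 15.4 and 7.23 CPM in WT. C25H10orf10, the sheep entry for the gene also known as DEPP1, was at 126 and 118 CPM in the CFTR-/- fetuses and 11.8, 14.9 and 13.9 CPM in WT. In each the groups stood far apart, with log2 fold changes of 4.12 ± 0.64, 2.73 ± 0.33 and 3.18 ± 0.17 (edgeR adjusted p = 0.0468, 0.0297 and 0.00296). THRSP, a regulator of lipid synthesis, was at 11.5 and 10.4 CPM in the CFTR-/- fetuses and 1.24, 2.33 and 2.16 CPM in WT (log2 fold change 2.53 ± 0.36, edgeR adjusted p = 0.0463). JUNB, an immediate-early AP-1 subunit, was the 1 called member of the stress list that was higher, at 1381 and 1319 CPM in the CFTR-/- fetuses and 563, 692 and 514 CPM in WT (log2 fold change 1.2 ± 0.18, edgeR adjusted p = 0.0468). Markers of other classes also moved within duct-like cells. Stromal markers summed to 57.1 and 44.3 per 1000000 UMIs in the twins and 29.6, 29.7 and 29.1 in WT, with 4 or 5 of 6 found in each animal. Macrophage markers summed to 14.3 and 23.5 against 7.2, 6.8 and 7.7, with 2 to 5 of 8 found, and lymphoid markers to 10.9 and 11.7 against 6.1, 8.3 and 7.0, with 2 to 4 of 7 found. Endothelial markers summed to 2.1 and 2.1 against 10.1, 7.8 and 10.8, with 4 to 6 of 6 found. Their part in the duct values was not tested.

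Transporters of chloride and bicarbonate, the machinery that works with CFTR, had no member called by edgeR among 16 tested (4 at an unadjusted p under 0.05, 1 by DESeq2), with a median of -0.28. The median was -0.07 without fetus 5 and -0.14 without WT 3. SLC4A4, the sodium bicarbonate cotransporter, was at 632 and 675 CPM in the CFTR-/- fetuses and 994, 862 and 662 CPM in WT. WT 3 lay between the twins, so the groups overlapped (log2 fold change -0.36 ± 0.21). ATP1B1, a subunit of the sodium pump, was at 384 and 393 CPM in the CFTR-/- fetuses and 791, 635 and 869 CPM in WT. Its levels did not overlap, but the log2 fold change of -0.98 ± 0.20 did not pass (edgeR adjusted p = 0.0809). Genes of mucus and goblet cells had no member called among 11 by edgeR, at an unadjusted p under 0.05 or by DESeq2. TFF2, a trefoil peptide of mucus, was at 76.8 and 58.9 CPM in the CFTR-/- fetuses and 68.6, 93.4 and 77.2 CPM in WT, with overlap. Transcription factors of ducts and progenitors had no member called by edgeR among 15 (3 at an unadjusted p under 0.05, 1 by DESeq2). SOX9, a factor of duct identity, was at 1019.5 and 1185 CPM in the CFTR-/- fetuses and 913, 953 and 823 CPM in WT, with a log2 fold change of 0.30 ± 0.17 (edgeR adjusted p = 0.377).

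The number of duct genes called turned on single animals, as 1779 were called without WT 3, 3 without WT 2 and 0 without WT 1 (0 called beside 1908 at an unadjusted p under 0.05). With labelled sex as a term edgeR called 0 (1216 at an unadjusted p under 0.05).

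In endocrine-like cells TDGF1 was lower and MME, CPB2 and CA8 were higher, also within the main cluster of the class. GAD2, VIM, PCSK1 and MEST were lower over the class. Within its main cluster VIM, PCSK1 and MEST were not called, and GAD2 was not tested. Of 11693 genes tested 177 were called (1.51%), 53 higher (0.453%) and 124 lower (1.06%). Among 19 hormone and granule genes 2 were lower and none higher, and the median was -0.38 (-0.12 without WT 1). By edgeR no member was lower without WT 1 or under 10% mitochondrial UMIs, beside 71 of 11216 and 119 of 10212 genes. PCSK1, which cleaves proinsulin and other prohormones, was at 126 and 123 CPM in the CFTR-/- fetuses and 338, 209.6 and 324 CPM in WT. CRYBA2, a crystallin found in islets, was at 147 and 178 CPM in the CFTR-/- fetuses and 409.5, 289 and 292 CPM in WT. Both were lower without overlap (log2 fold change -1.23 ± 0.22 and -1.02 ± 0.20, edgeR adjusted p = 0.0272 and 0.0404). GCG, the glucagon gene, was not called (log2 fold change 0.15, edgeR adjusted p = 0.748), and none of the class's own marker genes was called.

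The make-up of the endocrine-like class differed between the groups. In the unsupervised clustering a cluster led by GCG held 83.2% and 81.5% of the class in the CFTR-/- fetuses and 50%, 70.5% and 65.6% in WT. A cluster led by TTR held 14.5% and 16.8% in the CFTR-/- fetuses and 44.4%, 28.6% and 26.3% in WT. A small cluster led by DLK1, with GTL2 and PCSK1 among its 10 leading genes, held 0 and 1 cells of the CFTR-/- fetuses and 12, 0 and 48 of WT. These clusters were made from the same genes, so their sizes are a description. Within the cluster led by GCG, a fit added after the data were seen, TDGF1, MME, CPB2, CA8, CA9, IGFBP2 and HMGB2 were still called. VIM was not called there (log2 fold change -0.44, edgeR adjusted p = 0.492), nor were MEST (-0.19, 0.873) and PCSK1, whose difference turned to 0.34 (edgeR adjusted p = 0.82). CRYBA2 was at -1.52 (edgeR adjusted p = 0.0861), and GAD2, GTL2, PLAGL1, WFDC1 and SRGN did not pass the count filter there. Without the cluster led by DLK1, VIM, PCSK1, GTL2 and MEST were called, and PLAGL1 and WFDC1 were not (log2 fold change -3.05 and -3.08, edgeR adjusted p = 0.0571 and 0.0849).

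TDGF1, a growth factor coreceptor of the early embryo, was at 0 and 0 CPM in the CFTR-/- fetuses and 14.2, 20.5 and 6.38 CPM in WT. No UMI was found in the twins against 149 in WT, at least 28-fold lower when 3 counts over the group are taken as the floor. GAD2, which makes the transmitter GABA in beta cells and neurons, was at 1.12 and 2.95 CPM in the CFTR-/- fetuses and 73.6, 22.9 and 36.7 CPM in WT (log2 fold change -4.22 ± 0.56, edgeR adjusted p = 0.0127). VIM, the intermediate filament vimentin, was at 65.7 and 74.7 CPM in the CFTR-/- fetuses and 729.9, 272 and 402 CPM in WT (log2 fold change -2.74 ± 0.37, edgeR adjusted p = 0.0146). In both, even the lowest WT animal, WT 2, stood well above the twins. SRGN, the granule proteoglycan serglycin, is named by the study as a marker of immune cells. It had 1 UMI in the twins and 78 in WT, a ratio of 44.0 (exact interval 7.67 to 1760, counting error only). The part of immune cell RNA in these counts was not tested. WFDC1, a secreted protein of the whey acidic family, was at 0.562 and 1.802 CPM in the CFTR-/- fetuses and 29.5, 4.09 and 16.8 CPM in WT. WT 2 was nearer to the twins than to the other WT animals (log2 fold change -3.63 ± 0.70, edgeR adjusted p = 0.0373).

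The list of imprinted and related growth genes, many but not all of which are expressed from one parental copy in the fetus, was measured in endocrine-like cells. It had 3 of 19 tested members lower and 1 higher, against 1.06% and 0.453% of all genes, with a median of -0.61. The median was -0.55 without fetus 5 and -0.59 without fetus 6. Without WT 1, 1 of 17 was lower and none higher by edgeR, beside 71 and 22 of 11216 genes. Within the cluster led by GCG the median was 0.08, with 6 of 13 members negative. There 2 members were called lower and 1 higher by edgeR, beside 211 and 113 of 9738 genes. With labelled sex as a term the median over the class was 0.12. GTL2, the noncoding RNA also called MEG3, was at 7.31 and 8.84 CPM in the CFTR-/- fetuses and 212, 42.6 and 355 CPM in WT. PLAGL1, a zinc finger factor of growth, was at 3.93 and 2.46 CPM in the CFTR-/- fetuses and 74.3, 5.73 and 65.1 CPM in WT. MEST, a fetal growth gene, was at 23.6 and 14.9 CPM in the CFTR-/- fetuses and 72.4, 33.6 and 65.5 CPM in WT. In all 3 WT 2 was the lowest WT animal. The log2 fold changes were -4.64 ± 0.76, -4.20 ± 0.81 and -1.71 ± 0.32 (edgeR adjusted p = 0.0241, 0.0373 and 0.0344). IGFBP2, a binding protein of insulin-like growth factors, was higher at 19.1 and 16.5 CPM in the CFTR-/- fetuses and 4.18, 8.19 and 3.04 CPM in WT (log2 fold change 2.07 ± 0.36, edgeR adjusted p = 0.026). In the other classes tested, edgeR called no member of this list (between 1 and 6 members at an unadjusted p under 0.05, and up to 2 by DESeq2).

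MME, CPB2, CA8 and CA9 were among the rises in endocrine-like cells. MME, the peptidase neprilysin, was at 23.6 and 15.6 CPM in the CFTR-/- fetuses and 1.86, 0 and 2.23 CPM in WT. CPB2, a carboxypeptidase of plasma, was at 26.97 and 30.1 CPM in the CFTR-/- fetuses and 4.88, 9.01 and 6.28 CPM in WT. CA8, a carbonic anhydrase-related protein, was at 24.2 and 31.6 CPM in the CFTR-/- fetuses and 5.804, 10.6 and 8.41 CPM in WT. CA9, a carbonic anhydrase induced by low oxygen, was at 37.1 and 42.9 CPM in the CFTR-/- fetuses and 15.3, 18.8 and 18.9 CPM in WT. All 4 were above WT in both twins, with log2 fold changes of 3.33 ± 0.43, 2.21 ± 0.25, 1.86 ± 0.26 and 1.2 ± 0.19 (edgeR adjusted p = 0.0127, 0.0127, 0.0176 and 0.0241). PRSS1, an acinar trypsinogen, was at 94.4 and 14.1 CPM in the CFTR-/- fetuses and 2.79, 3.27 and 4.66 CPM in WT, far higher in one twin than the other (log2 fold change 3.68 ± 0.70, edgeR adjusted p = 0.0354). CPB1, another acinar enzyme, was also called higher. All 5 acinar gate markers were found in this class in each animal, and their sum was 1440 and 875 per 1000000 UMIs in the twins against 943, 1399 and 840 in WT. Stromal markers summed to 4.8 and 5.9 per 1000000 UMIs in the twins and 16.9, 11 and 12.7 in WT, endothelial markers to 1.6 and 2.7 against 5.8, 3.9 and 3.0, and Schwann markers to 35.4 and 30.8 against 60.4, 47.1 and 83.8, each lower in both twins. Duct markers were higher in both, at 103.9 and 117.9 against 62.9, 67.5 and 81.7, with 5 or 6 of 6 found in each animal. Intestinal markers were lower in both, at 76.6 and 64.4 against 86.5, 85.5 and 118.1, with 2 of 7 found in each animal. Of the stromal, endothelial and Schwann markers 2 or 3, 2 or 6 and 5 or 6 were found in the twins, and 4 to 6, 4 to 6 and 5 to 7 in WT. The part of RNA from these other cells in the endocrine values was not tested. HMGB2 was lower at 43.3 and 47.01 CPM in the CFTR-/- fetuses and 84.5, 72.04 and 79.4 CPM in WT (log2 fold change -0.80 ± 0.16, edgeR adjusted p = 0.0379). Of the unfolded protein response HSP90B1, HERPUD1, DNAJC3 and MANF were lower by edgeR and none of 20 was higher, against 1.06% and 0.453% of all genes. The median of that list was -0.71. It was -0.61 without fetus 5, -0.72 without fetus 6 and -0.33 with labelled sex as a term.

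The class was unevenly filled, with 214 and 702 cells of the twins and 268, 105 and 761 of WT. Between 1 and 2 genes were called without one or the other twin, 305 without WT 2, and edgeR called 0 with labelled sex as a term (1171 at an unadjusted p under 0.05).

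**Figure D4:**
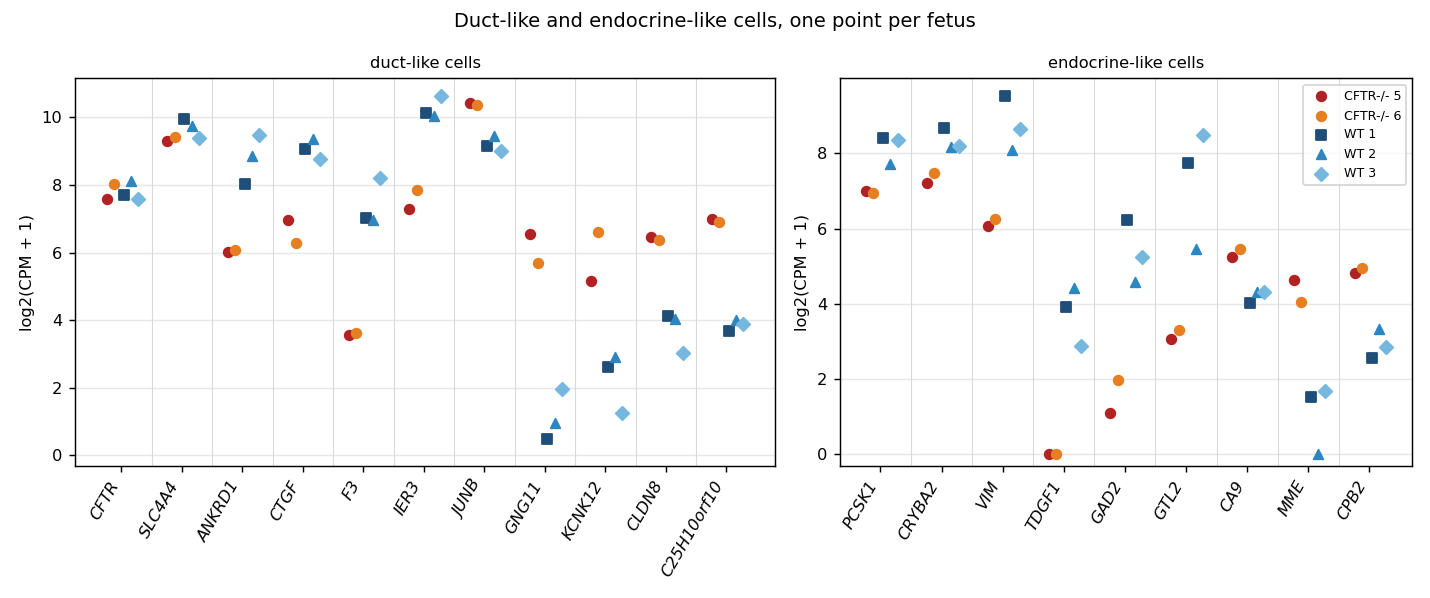
Expression as log2(CPM + 1) of 11 genes in duct-like cells (left) and 9 genes in endocrine-like cells (right), one point per fetus. CFTR and SLC4A4 overlap between the groups, the YAP targets ANKRD1, CTGF and F3 are lower in both CFTR-/- fetuses, and GNG11, KCNK12, CLDN8 and C25H10orf10 are higher.

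Stromal-like cells are the matrix-making fibroblasts of the lobules. Of 25 tested immediate-early and heat shock genes 6 were called lower in them, and collagens were not called. Of 6418 genes tested 29 were called (0.452%), 6 higher (0.0935%) and 23 lower (0.358%). TIPARP, a target of the aryl hydrocarbon receptor, was at 21.8 and 28.1 CPM in the CFTR-/- fetuses and 285, 281 and 751 CPM in WT. HES1, an effector of Notch signalling, was at 24.2 and 49.8 CPM in the CFTR-/- fetuses and 492, 382 and 845 CPM in WT. FOSB, an AP-1 subunit, was at 7.26 and 10.8 CPM in the CFTR-/- fetuses and 92.3, 161 and 92.5 CPM in WT. In each the WT animals were several times as high as either twin. The log2 fold changes were -4.13 ± 0.55, -3.94 ± 0.46 and -3.60 ± 0.44 (edgeR adjusted p = 0.0141, 0.013 and 0.0141), and -3.48, -3.54 and -3.73 without WT 3. KLF2, a transcription factor induced by flow and stress, was at 244 and 232 CPM in the CFTR-/- fetuses and 1076, 1173 and 1945 CPM in WT (log2 fold change -2.56 ± 0.33, edgeR adjusted p = 0.0141). KLF4, its relative, was at 24.2 and 23.8 CPM in the CFTR-/- fetuses and 104, 147 and 282 CPM in WT (log2 fold change -2.91 ± 0.48, edgeR adjusted p = 0.0373). IER3 was at 60.5 and 71.4 CPM in the CFTR-/- fetuses and 253, 619 and 666 CPM in WT (log2 fold change -2.95 ± 0.44, edgeR adjusted p = 0.023). All 3 were highest in WT 3, and both twins stood below every WT animal.

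PTGS2, the inducible cyclooxygenase of prostaglandin synthesis, was the 1 gene called lower of 9 inflammation genes, against 0.358% of all genes, at 45.99 and 21.6 CPM in the CFTR-/- fetuses and 159, 304 and 452 CPM in WT. NFKBIZ, an inducible regulator of NF-kB, was at 12.1 and 12.98 CPM in the CFTR-/- fetuses and 72.8, 98.9 and 136 CPM in WT. Both were lower and highest in WT 3 (log2 fold change -3.19 ± 0.51 and -3.03 ± 0.41, edgeR adjusted p = 0.0276 and 0.0141).

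FABP4, CA5A, IFI27L1, FGL1 and SYNPO2 were the called rises with a gene symbol. FABP4, a fatty acid carrier of adipocytes and capillaries, was at 38.7 and 177 CPM in the CFTR-/- fetuses and 0, 0 and 3.67 CPM in WT. It was unequal between the twins and had no UMI in WT 1 and WT 2 (log2 fold change 5.64 ± 0.82, edgeR adjusted p = 0.0214). CA5A, a mitochondrial carbonic anhydrase, had 42 UMIs in the twins and none in WT, at least 37-fold higher with a floor of 3 counts over the group. IFI27L1, of an interferon-inducible family, was at 206 and 640.5 CPM in the CFTR-/- fetuses and 27.5, 16.1 and 16.1 CPM in WT (log2 fold change 4.42 ± 0.47, edgeR adjusted p = 0.0118). FGL1, a fibrinogen-like secreted protein, was at 24.2 and 156 CPM in the CFTR-/- fetuses and 3.24, 4.6 and 4.403 CPM in WT (log2 fold change 4.41 ± 0.74, edgeR adjusted p = 0.0389). SYNPO2, an actin-associated protein of muscle, was at 58.1 and 97.4 CPM in the CFTR-/- fetuses and 8.09, 16.1 and 8.07 CPM in WT (log2 fold change 2.97 ± 0.40, edgeR adjusted p = 0.0141). IFI27L1 stayed called without each of the 5 animals in turn.

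Fibrillar collagens and other matrix genes had no member called by edgeR among 35 tested (8 at an unadjusted p under 0.05, none by DESeq2), with a median of -0.14. It was -0.40 without fetus 5, 0.07 without fetus 6, 0.02 without WT 2 and -0.46 with classes taken from clusters. COL3A1, type III collagen, was at 17014 and 10005 CPM in the CFTR-/- fetuses and 12751, 18202 and 8884 CPM in WT, and its log2 fold change was 0.03 ± 0.36. MGP, an inhibitor of calcification, was at 14463 and 8854 CPM in the CFTR-/- fetuses and 5509, 6909 and 5439.7 CPM in WT. Both twins were above all WT animals in MGP, without passing the test (log2 fold change 0.97 ± 0.28, edgeR adjusted p = 0.225). TGF-beta signalling, the pathway best known for driving fibrosis, had no member called by edgeR among 16 (1 at an unadjusted p under 0.05, none by DESeq2). TGFBI, a matrix protein induced by TGF-beta, was at 274 and 277 CPM in the CFTR-/- fetuses and 390.1, 297 and 404 CPM in WT, with a log2 fold change of -0.41 ± 0.23. DLK1 and IGF2, imprinted fetal growth genes, were at 5107 and 5083 against 10713, 6179.9 and 7675 CPM and 3638 and 3447 against 5612, 4568 and 6745 CPM, CFTR-/- against WT. Both were lower in the twins without overlap, but not called (edgeR adjusted p = 0.345 and 0.317).

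These profiles rest on 100 and 102 cells of the twins against 130, 75 and 311 of WT. Markers of mural cells summed to 1201 and 872 per 1000000 UMIs in the twins and 617, 700 and 738 in WT within this class, with 5 or 6 of the 6 found in each animal. Mesothelial markers were at 32.5 and 55.8 against 24.5, 22.9 and 23.3, with 1 of 6 found in each animal, and endocrine markers at 30.1 and 17.3 against 49, 34.4 and 50, with 4 or 5 of 6 found. The part of these markers' cells in the results was not tested.

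Mural (stellate)-like cells were chosen by ACTA2, TAGLN, RGS5, NOTCH3, EDNRA and TPM2, none of them a gene of retinoid handling. They had lower MT1A, MT2A and CDKN1A in the twins, along with 3 members of the stress list. Of 4803 genes tested 28 were called (0.583%), 2 higher (0.0416%) and 26 lower (0.541%). Of these 28 genes 12 (42.9%) were also called in acinar-like cells, among them CDKN1A, CSRNP1, ATF3 and HMGB2. In endocrine-like cells 9 (32.1%) were also called, among them MT1A, MT2A, CDKN1A, CSRNP1 and HMGB2. MT1A, a metallothionein that binds zinc and copper, was at 3.26 and 0 CPM in the CFTR-/- fetuses and 403, 781 and 772 CPM in WT. The twins together held 1 UMI against 972 in WT, a ratio of 363 (exact interval 65.1 to 14400, counting error only). MT2A, a second metallothionein, was at 22.8 and 35.98 CPM in the CFTR-/- fetuses and 747, 766 and 299 CPM in WT (log2 fold change -4.35 ± 0.54, edgeR adjusted p = 0.0205). MT1A stayed called without each of the 5 animals in turn, although reads may be split between the metallothionein copies.

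CDKN1A was at 6.52 and 31.98 CPM in the CFTR-/- fetuses and 291, 282 and 662 CPM in WT (log2 fold change -4.49 ± 0.65, edgeR adjusted p = 0.0296). CSRNP1, a nuclear protein of the immediate-early response, was at 6.52 and 15.99 CPM in the CFTR-/- fetuses and 155, 133 and 135 CPM in WT (log2 fold change -3.66 ± 0.40, edgeR adjusted p = 0.0133). RNF122, a ubiquitin ligase, was at 16.3 and 23.98 CPM in the CFTR-/- fetuses and 298, 194 and 247 CPM in WT (log2 fold change -3.61 ± 0.36, edgeR adjusted p = 0.00909). In each of them both twins lay far below all WT animals, and CDKN1A was highest in WT 3. JUNB was at 877 and 1039 CPM in the CFTR-/- fetuses and 4001, 3648 and 2295 CPM in WT (log2 fold change -1.79 ± 0.29, edgeR adjusted p = 0.0386). ATF3 was at 199 and 468 CPM in the CFTR-/- fetuses and 1862, 1452 and 1456 CPM in WT (log2 fold change -2.26 ± 0.37, edgeR adjusted p = 0.0402), and IER2 at 97.8 and 176 CPM in the CFTR-/- fetuses and 612, 484 and 512 CPM in WT (log2 fold change -1.98 ± 0.32, edgeR adjusted p = 0.0386). These were the 3 called members of the stress list. HMGB2 was at 39.1 and 55.96 CPM in the CFTR-/- fetuses and 179, 229 and 305 CPM in WT (log2 fold change -2.35 ± 0.35, edgeR adjusted p = 0.0296). ANXA3, an annexin, was higher at 143 and 128 CPM in the CFTR-/- fetuses and 39.7, 49.6 and 39.5 CPM in WT (log2 fold change 1.68 ± 0.27, edgeR adjusted p = 0.0386).

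The lists of matrix, contraction, TGF-beta signalling, retinoid handling and activation had no member called in this class. Matrix genes had no member called by edgeR among 27 (1 at an unadjusted p under 0.05, none by DESeq2), contractile genes none among 11 (1 and none) and TGF-beta signalling none among 14 (2 and none). Genes of retinoid handling had none among 7 (1 and none). Genes of activated stellate or injured Schwann cells had none among 7 by edgeR (1 at an unadjusted p under 0.05, 1 by DESeq2). SPARC, a collagen-binding matrix protein, was at 2390.0 and 2330.4 CPM in the CFTR-/- fetuses and 3049, 2203 and 2764 CPM in WT. CALD1, an actin-binding protein of smooth muscle, was at 3267 and 3006 CPM in the CFTR-/- fetuses and 3723, 3591 and 4262 CPM in WT. COL4A1, type IV collagen, was at 2573 and 2486 CPM in the CFTR-/- fetuses and 3564, 2844 and 2992 CPM in WT. SPARC overlapped, while CALD1 and COL4A1 lay lower in the twins by little (log2 fold change -0.30 ± 0.20 and -0.31 ± 0.20, edgeR adjusted p = 0.555 and 0.557). RARRES2, the retinoid-responsive chemoattractant chemerin, was at 1816 and 2035 CPM in the CFTR-/- fetuses and 1269.7, 694 and 1219.7 CPM in WT, with a log2 fold change of 0.86 ± 0.28 (edgeR adjusted p = 0.241). Of 6 inflammation genes none was called by edgeR (4 at an unadjusted p under 0.05, 2 by DESeq2). IL6, a cytokine, had 2 UMIs in the twins and 401 in WT, a ratio of 75.0 (exact interval 20.6 to 621, counting error only), spread unevenly over the WT animals at 3.26 and 3.997 against 33.1, 160.1 and 418 CPM, CFTR-/- against WT. CCL2, a monocyte attractant, was at 91.3 and 3.997 CPM in the CFTR-/- fetuses and 582, 351 and 436 CPM in WT, with a log2 fold change of -3.19 ± 0.69 (edgeR adjusted p = 0.117). The twins gave 67 and 57 cells to this class. Endocrine markers within it summed to 15.4 and 22.6 per 1000000 UMIs in the twins and 46, 40.2 and 69.4 in WT, with 2 to 6 of 6 found, and their part was not tested.

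Endothelial-like cells had the fewest calls. Of 7581 genes tested 6 were called (0.0791%), 3 higher (0.0396%) and 3 lower (0.0396%). SIK1, a salt-inducible kinase of the cyclic AMP response, was at 31.6 and 41.6 CPM in the CFTR-/- fetuses and 230.4, 147 and 233 CPM in WT. RALGDS, an exchange factor of Ral, was at 29.5 and 37.3 CPM in the CFTR-/- fetuses and 130.1, 147 and 130.4 CPM in WT. Both were lower without overlap (log2 fold change -2.46 ± 0.31 and -2.0 ± 0.24, edgeR adjusted p = 0.0489 and 0.0489). SGMS2, a sphingomyelin synthase, was at 2.11 and 0 CPM in the CFTR-/- fetuses and 44.1, 52.5 and 69.9 CPM in WT. The twins held 1 UMI against 176 in WT, a ratio of 60.8 (exact interval 10.8 to 2420, counting error only). MICA, a ligand of a natural killer cell receptor with close relatives among MHC genes, was at 25.3 and 58.9 CPM in the CFTR-/- fetuses and 0, 1.31 and 0 CPM in WT. WT held 1 UMI against 53 in the twins, a ratio of 153 (exact interval 26.4 to 6170, counting error only). The other 2 called genes have a locus number in place of a symbol. Duct markers within this class summed to 2.2 and 4.4 per 1000000 UMIs in the twins and 12.8, 5.4 and 17.3 in WT, with 1 to 5 of 6 found, and their part was not tested.

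Endothelial genes had no member called by edgeR among 22 (6 at an unadjusted p under 0.05, none by DESeq2), and basement membrane genes none among 12 (3 and none). CD34, a sialomucin of vessels, was at 1109.6 and 1057 CPM in the CFTR-/- fetuses and 889, 672 and 829 CPM in WT. COL4A1 was at 3846 and 2904 CPM in the CFTR-/- fetuses and 4822, 4149.6 and 5166 CPM in WT. The twins were above every WT animal in CD34 and below every WT animal in COL4A1, without passing the test (edgeR adjusted p = 0.389 and 0.428). NFKBIA, the feedback inhibitor of NF-kB, was at 67.5 and 101 CPM in the CFTR-/- fetuses and 141, 201 and 481 CPM in WT, lowest in the twins (log2 fold change -1.70 ± 0.52, edgeR adjusted p = 0.206). Of 14 inflammation genes 9 lay lower without overlap, against 17.5% of all genes. EdgeR called none of them (9 at an unadjusted p under 0.05, none by DESeq2). Leaving out one animal in turn gave between 1 and 54 called genes, and DESeq2 called 97, of which 83.5% were lower, against 3 of the 6 by edgeR.

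**Figure D5:**
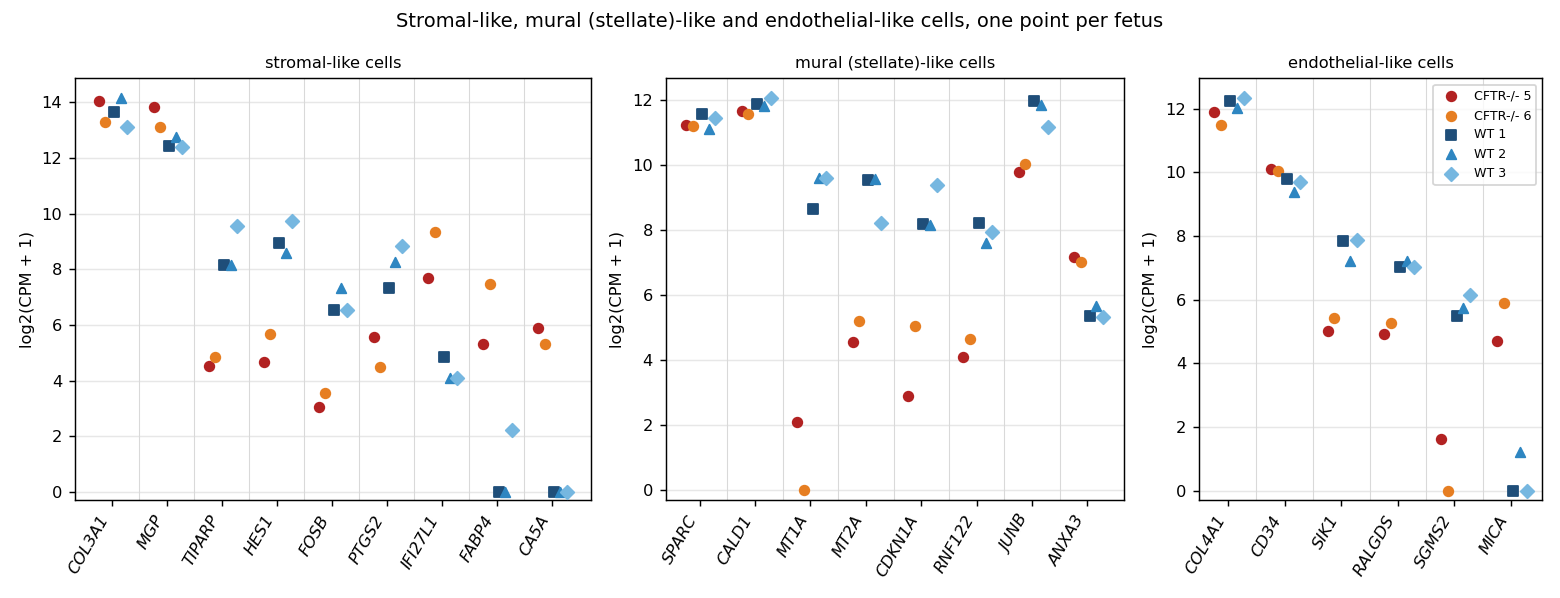
Expression as log2(CPM + 1) in stromal-like (9 genes), mural (stellate)-like (8 genes) and endothelial-like cells (6 genes), one point per fetus. COL3A1 and SPARC overlap between the groups, while TIPARP, HES1 and FOSB in stromal-like cells and MT1A, MT2A and CDKN1A in mural (stellate)-like cells are lower in both CFTR-/- fetuses.

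Over all kept cells summed per animal, 2 of 16581 genes were called (0.0121%), MALRD1 higher (0.00603%) and IFRD1 lower (0.00603%). MALRD1 is an enterocyte protein tied to bile acid signalling, and IFRD1 is a transcriptional coregulator. Sums over all cells also move with the shares of the classes, which cannot be told apart there from the level per cell. Macrophage-like, lymphoid-like, Schwann-like and other small classes had too few cells per animal for a test of genes.

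The cloned CFTR-/- fetuses of the same age offered a second set of animals without CFTR. They were compared in one fit with the WT and naturally bred animals, a contrast chosen after the data were seen, and they share the WT animals with the naturally bred twins. Animals entered a class with at least 20 cells there. For cloned CFTR-/- minus WT, edgeR called 12 of 13930 genes in acinar-like cells and 9 of 12463 in duct-like cells. It called 13 of 12358 in endocrine-like cells and 1 of 6796 in stromal-like cells. Changes of single genes for cloned minus WT are given below as effect sizes only. The cloned fetus labelled 3 stood apart, with 943 kept cells at a median of 3425 UMIs, of which 3.82% were acinar-like, 45.4% endothelial-like and 20.04% mural (stellate)-like. It had 36 acinar-like cells and no endocrine-like cell, so the endocrine contrast rests on 3 cloned animals, and the contrasts of the other classes are also given without it. The immediate-early and heat shock list in acinar-like cells had a median log2 fold change of 0.04 for cloned CFTR-/- minus WT. For naturally bred minus cloned CFTR-/- fetuses 16 of its 26 members were lower and none was higher by edgeR, beside 2.14% and 1.01% of all genes, with a median of -2.56. Without cloned 3 these were 9 and none, beside 0.723% and 0.302% of all genes, with a median of -2.32, and -0.10 for cloned minus WT. HSPA6 was 0.31 for cloned minus WT and -3.36 (adjusted p = 0.0177) for naturally bred minus cloned. CDKN1A was 0.22 and -5.55 (adjusted p = 0.00473), and CHAC1 was -0.74 and -4.08 (adjusted p = 0.0146), all in acinar-like cells with adjusted p from edgeR. Without cloned 3 the 3 genes were at -3.29, -5.49 and -4.06 for naturally bred minus cloned (edgeR adjusted p = 0.0453, 0.0195 and 0.0438). In these genes the naturally bred twins thus lay below the cloned fetuses as well as below WT.

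In duct-like cells 3 of the 12 YAP targets were lower in naturally bred than in cloned CFTR-/- fetuses, beside 0.417% of all genes, and the median was -1.23. Without cloned 3 there were also 3, beside 1.45% of all genes, with a median of -0.99. F3 was 0.40 for cloned minus WT and -4.44 (adjusted p = 0.0248) for naturally bred minus cloned (edgeR), and CTGF was 0.69 and -3.13 (adjusted p = 0.043). GNG11 was 6.01 and -0.61 (adjusted p = 0.688), which did not pass. Without cloned 3, F3 and CTGF were at -4.64 and -2.92 and GNG11 at -0.53 for naturally bred minus cloned (edgeR adjusted p = 0.0172, 0.0279 and 0.72). In endocrine-like cells GAD2 was -2.90 for cloned minus WT and -1.32 (adjusted p = 0.629) for naturally bred minus cloned (edgeR). CPB2 was -0.27 and 2.47 (adjusted p = 0.0317). Digestive enzymes in acinar-like cells had 4 of 18 tested members higher and none lower in naturally bred than in cloned fetuses by edgeR, against 1.01% and 2.14% of all genes, with a median of 1.09, beside -0.89 for cloned minus WT. Without cloned 3, 1 of the 18 was higher, against 0.302% of all genes. In stromal-like cells IFI27L1 was 4.35 and 0.08 (adjusted p = 0.972), and FGL1 was -2.30 and 6.72 (adjusted p = 0.00936) (edgeR). Without cloned 3 they were at -0.01 and 6.63 for naturally bred minus cloned (edgeR adjusted p = 0.999 and 0.0479). Sex and cloning differ between these groups along with the way the animals were bred, and these and any difference of season cannot be told apart.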

How the data were processed

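Single-cell RNA of 5 fetal pancreata was made into 10x 3′ libraries. The authors deposited matrices of raw UMI counts per gene and barcode called as a cell. The submitters' processing notes name Cell Ranger 3.1.0, and the study aligned reads to the Oar_v4.0 sheep assembly. No sequence or coordinate is given. Of 24478 genes, 8432 had only a locus number, and 567 of these were named from the study or RefSeq. Cells were filtered, scored on marker genes (all in the files but for some erythroid, mesothelial and intestinal ones) and assigned to the class with the highest score of at least 0.15. The next score had to be at most 0.6 of the highest, and cells that failed either rule stayed in no class. UMIs were summed per animal and class. edgeR 4.0.16 (R 4.3.3, filterByExpr, TMM, quasi-likelihood) tested 2 against 3 animals in the 6 classes with at least 20 cells in each animal. Shares were compared by exact permutation. Clusters came from scanpy 1.11.5 (Python 3.11.15) without integration. A doublet caller marked only 8 to 45 cells per library and was not used, and removing the 30 to 146 highest scores was an alternative. Alternatives were DESeq2 1.42.0, no count filter, under 10% mitochondrial UMIs, classes from clusters, sex as a term, all 120-day animals in one fit, and leaving out each animal. The members and gene lists were chosen with earlier results of these data known. The 5 largest called changes per direction and class with a symbol, at least 10 CPM, no overlap and no part in the gates were named, with CFTR, genes the study names and up to 4 members per list (2 where none was called). Some genes that met this rule are not reported here. The fits were tested on simulated data, with counts drawn independently for each gene and animal. Shifts of a whole library, such as that of WT 3, and the relatedness of the twins were not simulated. The percentages that follow therefore need not hold for the calls reported here. For the genes and animals of the acinar-like, duct-like, endocrine-like, stromal-like, mural (stellate)-like and endothelial-like cells in turn, 15, 24, 45, 9, 14 and 4% of log2 changes of 1 were found, 72, 79, 84, 79, 85 and 72% of those of 2, and 13.9, 9.65, 9.79, 6.38, 10.8 and 1.3% of calls were false.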

Additional observations from a re-analysis of the deposited data

Results flagged for a closer look

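Genes called in opposite directions in different classes of the same animals were set aside for a closer look. ANXA3 was lower in acinar-like cells (log2 fold change -1.0) and higher in mural (stellate)-like cells (1.68). JUNB was higher in duct-like cells (1.2) and lower in stromal-like (-2.31) and mural (stellate)-like cells (-1.79). In each of these classes every CFTR-/- fetus lay on one side of every WT animal. That held for every called gene of these classes, so it adds nothing to the calls. The difference between the classes was not tested.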

How the results depend on the processing

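No paired analysis was possible because the CFTR-/- libraries carry the numbers 5 and 6 and the WT libraries 1 to 3, with none shared. Counts of called genes in acinar-like, duct-like, endocrine-like, stromal-like, mural (stellate)-like and endothelial-like cells and over all cells were 392, 87, 177, 29, 28, 6 and 2 as reported. DESeq2 gave 1429, 538, 288, 73, 61, 97 and 1187, and over all cells 69.2% of its calls were lower against 1 of 2 by edgeR. Labelled sex as a term gave 13, 0, 0, 1, 1, 3 and 0 (1216, 1171 and 1415 at an unadjusted p under 0.05 where 0 were called). All 120-day animals with at least 20 cells of the class in one fit (3 of the 4 cloned for endocrine-like cells) gave 197, 0, 81, 5 and 0 in the first 5 classes and 1 over all cells (1304 and 475 at an unadjusted p under 0.05 for duct-like and mural cells). Without a filter on low counts 501, 1114, 349, 327 and 570 were called from duct-like to endothelial-like cells, and 35 over all cells. Classes taken from clusters gave 168, 18 and 3 in stromal-like, mural and endothelial-like cells, and cells under 10% mitochondrial UMIs gave 29 in endothelial-like cells. Leaving out each animal in turn gave 0 to 1916, 0 to 1779, 1 to 416, 3 to 54, 2 to 32, 1 to 54 and 0 to 360, with the highest count without WT 3 except in mural cells (without WT 2). Dropping a twin leaves a lone animal that is assumed to vary like WT. With labelled sex as a term the WT level rests on WT 2 alone. Differences in share (percentage points) ran from -2.62 to 11.96 for acinar-like cells (as reported 5.89, reversed at -2.62 without WT 3 and -0.19 without fetus 5), from -5.66 to 8.41 for endocrine-like cells (as reported 1.37, reversed at -5.66 without fetus 6 and -1.5 without WT 2), and from -1.73 to 0.589 for lymphoid-like cells (as reported -0.572, reversed at 0.589 without fetus 6 and 0.484 without WT 2). The causes were not tested. Of the 81 named and called genes, 1 was called under all other settings, 2 without each animal and 0 changed direction under these. Of alternatives added after the data were seen, endocrine-like cells without the cluster led by DLK1 gave 175 calls and the cluster led by GCG alone gave 324, where PCSK1 changed direction without a call. The precision is limited by 2 animals in one group.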

Other observations

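Genes of antigen presentation and of the interferon response were measured in endothelial-like cells without a call. Of 9 antigen presentation genes 5 lay higher in both CFTR-/- fetuses without overlap, and of 16 interferon genes 9 did, against 17.7% of all genes. Their median log2 fold changes were 0.60 and 0.56, and edgeR called none of them (3 and 6 at an unadjusted p under 0.05, none by DESeq2). B2M, the light chain of MHC class I, was at 2510.3 and 2542 CPM in the CFTR-/- fetuses and 1283, 1906 and 2269.5 CPM in WT. The lowest WT animal was WT 1, and WT 3 came near the twins. Cell division genes of the same class lay lower without overlap in 8 of 19, against 17.5%, with none called by edgeR (7 at an unadjusted p under 0.05, 1 by DESeq2). Their summed CPM was 709 and 1043 in the twins and 1036, 3017 and 2041 in WT, so WT 1 lay within the range of the twins.

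EIF2S3, an X-linked translation initiation factor that escapes X inactivation in other mammals, followed labelled sex within WT. It is 1 of 11 such genes tested in duct-like cells, where 4 lay lower in the twins without overlap and 1 higher, against 20.2% and 19.9% of all genes. Their summed CPM there was 1150.4 and 1243 in the twins and 1224, 1320 and 1474 in WT, so the list as a whole was not highest in the female WT animal. In duct-like cells it was at 215 and 231 CPM in the CFTR-/- fetuses and 106, 174 and 101 CPM in WT, and WT 2 is the female WT animal. In stromal-like cells it was at 257 and 387 CPM in the CFTR-/- fetuses and 87.4, 189 and 122 CPM in WT. In mural (stellate)-like cells it was at 245 and 316 CPM in the CFTR-/- fetuses and 112, 191 and 121 CPM in WT. WT 2 was the highest WT animal in each, below both female CFTR-/- fetuses. The difference between CFTR-/- and WT was not called in any of these classes (edgeR adjusted p = 0.163, 0.149 and 0.199).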
